A study of Xenopus laevis with 12 samples.

Results

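The arrays compared here set the eye field (EF) of *Xenopus laevis*, the African clawed frog, against the whole embryo it was cut from. They were chosen by their labels alone, 3 arrays of EF tissue, which the labels call eye primordia, and 3 of whole embryos, 6 of the 12 arrays of the study. All embryos were at stage 15, when the neural plate is still an open sheet, and neither the labels nor the study's methods name a mutation, a transgene or a treatment for any of these groups. Each EF array took the RNA of 40 dissected pieces, as did each array of the posterior neural plate (PNP) and of non-neural lateral endoderm from the flank (LE), which serve here only as further points of reference, while no number of embryos is given for a whole-embryo array. The study's methods place the triplicates on different days and with different females. The names PNP and LE are those of the pieces as cut. LE also had high signal of epidermal genes, and PNP of somite and muscle genes, as given below. By the study's account the EF pieces also held the mesendoderm beneath the neural plate, so EF signal is that of both layers. An array of dissected tissue is a pool of many pieces, while how many embryos a whole-embryo array holds is not known. The p-values measure the spread between arrays. A whole embryo contains its own eye field, so a difference from it is diluted by the EF share of its RNA.

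The EF is the stretch of the anterior neural plate from which both retinas arise. Its cells are dividing progenitors held by transcription factors of the anterior neural plate, and they lie next to the future telencephalon and diencephalon, with surface ectoderm beside them and head mesendoderm beneath. A whole embryo at this stage adds everything else. It has an epidermis with precursors of mucus-secreting, ciliated and ion-transporting cells, and a large yolky endoderm. It also holds the mesoderm of the future somites, blood and heart precursors, and the posterior end of the body.

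By limma, with an adjusted p under 0.05 and 2-fold as limits, EF had 376 probe sets above whole embryos (2.43% of the 15491 tested) and 1027 below (6.63%). By the adjusted p alone, 1368 were above (8.83%) and 1635 below (10.6%). Read as 6486 named genes, each from its brightest probe set, 166 were higher (2.56%) and 510 were lower (7.86%). Without the fold limit, which is the rule used for every gene list below, 659 genes were higher (10.2%) and 794 were lower (12.2%). All 3 EF arrays lay above all 3 whole-embryo arrays for 1568 genes (24.2%) and below them for 1086 genes (16.7%). The median log2 difference over all genes was 0.10. Where a list below has 0 members in a direction, an unadjusted p under 0.05 from limma gave at most 1 member. The exception was 2 circadian clock genes, lower at an unadjusted p. For all these lists an unpaired t-test gave 0 members in that direction after adjustment. In bulk tissue, fewer cells of a type and less RNA per cell cannot be told apart.

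**Figure D1:**
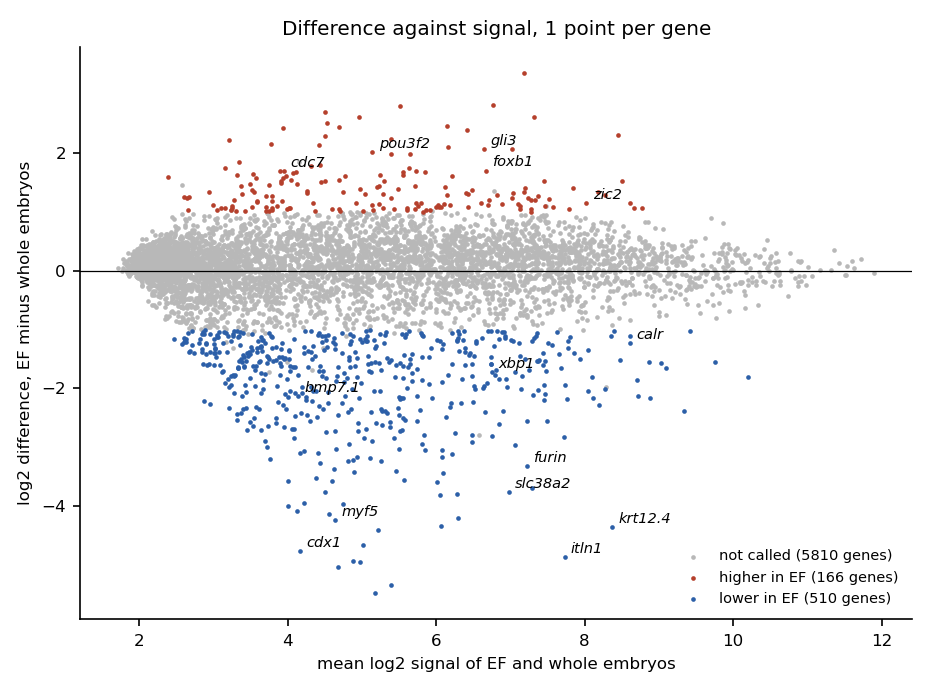
Log2 difference between EF and whole embryos (vertical axis) against mean log2 signal (horizontal axis), 1 point for each of 6486 genes. Red points are the 166 genes higher in EF and blue points the 510 genes lower in EF by limma at an adjusted p under 0.05 and 2-fold, and the falls reach further from 0 than the rises.

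An array's background ceiling was set at its brightest Bacillus control, a log2 signal of 2.1 to 2.57 on these 6 arrays. A gene that never passed the ceiling in a group has only a bound there, written as at least N-fold, for which each array counted at the larger of its ceiling and the gene's signal. The median log2 signal was 3.24 to 3.28 on the EF arrays and 3.28 to 3.38 on the whole-embryo arrays. The mean of 18 hybridisation controls was 10.13 to 10.34 in EF and 9.81 to 9.93 in whole embryos on the log2 scale, and the log2 difference between the 3′ and 5′ probe sets of beta-actin was 0.68 to 1.79 in EF and −0.88 to 0.80 in whole embryos. For Gapdh the same difference was 2.57 to 3.6 in EF and 2.86 to 3.26 in whole embryos. The part of these control values in the results was not tested.

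Of 29 measured forebrain regulators, 16 were higher, 2 were lower and the rest did not pass, with a median log2 difference of 0.58 against 0.10 over all genes. Of 15 measured eye genes that the study itself listed from these tissues, 11 were higher and 0 lower, and this list is not independent evidence of its direction. *gli3*, the zinc-finger transducer of Hedgehog signalling that patterns the dorsal forebrain, had log2 signals of 7.78, 7.43 and 7.84 in EF and of 5.39, 5.7 and 5.73 in whole embryos. Every EF array thus lay far above every whole-embryo array, a 4.22-fold difference (adjusted p = 4.88e-05 from limma), and the means of PNP at 4.02 and LE at 4.92 were lower still. *pou3f2*, a POU-domain gene of neural progenitors, read 6.25, 6.14 and 6.06 in EF and 3.55, 4.62 and 4.23 in whole embryos, 4.05-fold higher (adjusted p = 7.04e-05). The EF arrays agreed closely here, and the spread lay in the whole embryos.

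*barhl2*, a homeobox gene of the diencephalon and of retinal neurons, had log2 signals of 4.15, 3.85 and 4.98 in EF. In whole embryos it read 2.10, 1.88 and 2.31, above the background ceiling on 1 array only, and was 4.69-fold higher in EF (adjusted p = 1.53e-04). It was thus a dim gene whose whole-embryo level is hardly measured. *shisa1.1*, whose protein holds back Wnt and FGF receptors in the head, read 5.54, 5.36 and 5.59 in EF and 3.62, 2.68 and 3.76 in whole embryos, 4.40-fold higher (adjusted p = 3.78e-05). *eomes*, a T-box gene used in both early mesendoderm and the telencephalon, was 3.05-fold higher (adjusted p = 0.0082), and *alx1*, an aristaless-type homeobox gene of head mesenchyme, was at least 2.08-fold higher (adjusted p = 1.26e-04). Against this direction, *sall3*, a spalt zinc-finger gene, fell by 1.30 on the log2 scale, with a mean of 6.79 in PNP. *emx2*, a homeobox gene of the dorsal telencephalon, had a log2 difference of 0.01 (adjusted p = 0.984), with overlapping arrays at 6.48 to 6.64 in EF and 5.90 to 7.51 in whole embryos, and its LE mean of 7.68 exceeded both.

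**Figure D2:**
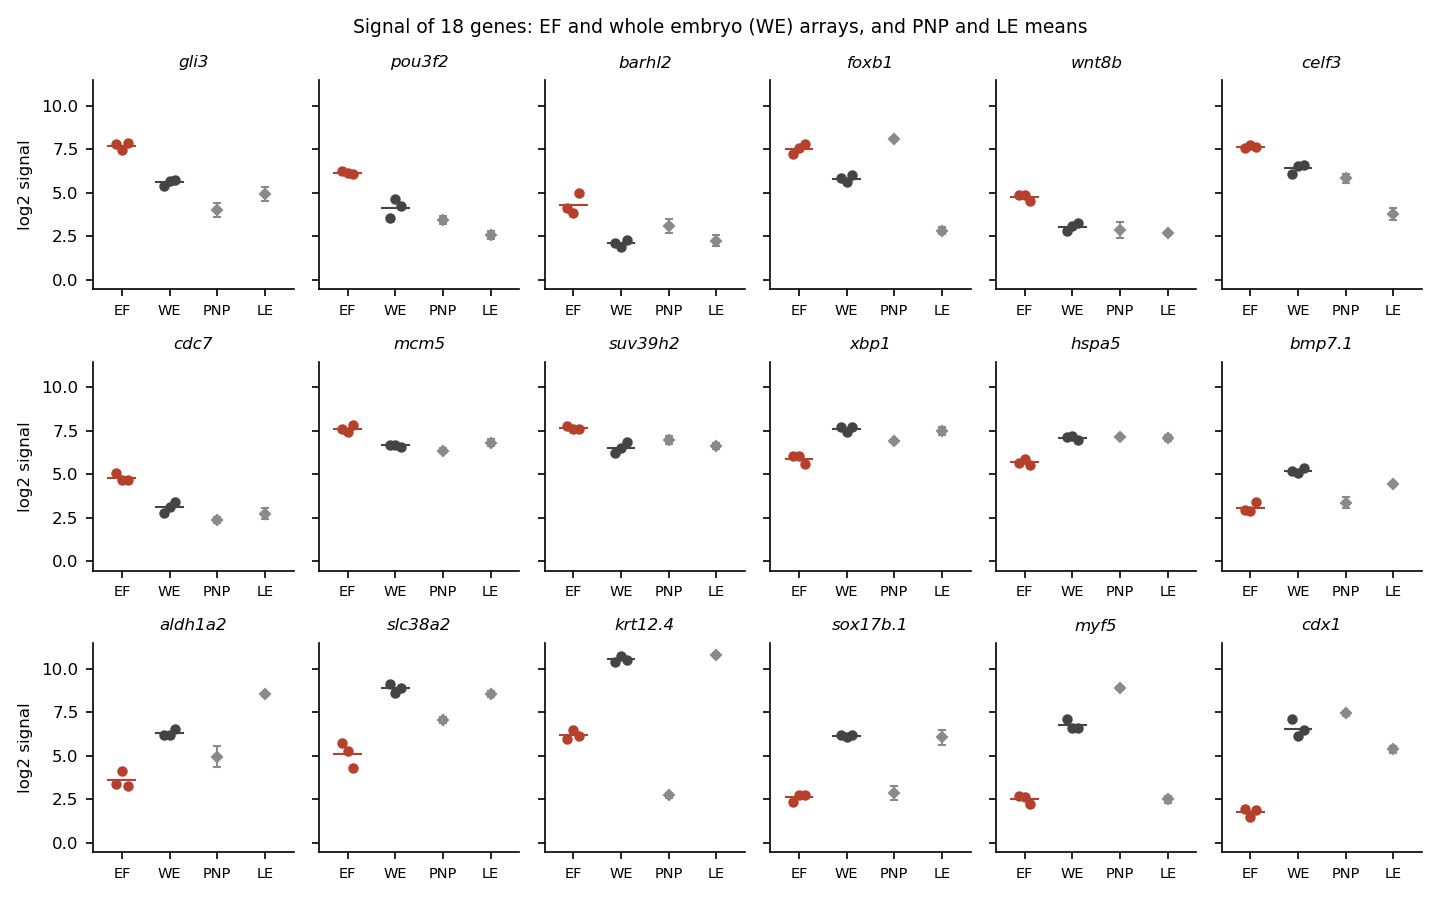
Log2 signal of 18 genes, 1 panel each, with points for the 3 EF and 3 whole-embryo arrays, a line at their mean, and gray diamonds for the PNP and LE means with the SD of 3 arrays. In all 18 panels the EF and whole-embryo arrays are separate, while the PNP and LE means differ from gene to gene, as for *foxb1*, at 8.07 in PNP and 2.83 in LE.

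Genes listed as pan-neural were higher as well. Of 19 measured pan-neural progenitor genes, 9 were higher and 0 lower, with a median log2 difference of 0.81. *sox3*, a SoxB1 factor that keeps neural progenitors undifferentiated, read 7.98, 7.96 and 7.71 in EF and 6.61, 6.74 and 6.67 in whole embryos, 2.30-fold higher (adjusted p = 0.00121). The EF arrays were separate from the whole-embryo arrays and close to one another. *sox11*, a SoxC factor at the onset of neural differentiation, was 1.86-fold higher (adjusted p = 0.00967). Among the Zic zinc-finger genes of the anterior and lateral neural plate, *zic2* was 2.22-fold, *zic1* 2.48-fold and *zic5* 4.93-fold higher, the last with EF arrays at 6.41, 4.39 and 6.16. The summed linear signal of the 19 pan-neural genes was 4005 to 4980 on the EF arrays and 2298 to 2696 on the whole-embryo arrays. On the PNP arrays it was 2322 to 2836, overlapping whole embryos. PNP means of *sox3*, *sox11*, *zic1* and *zic5* were 6.12, 8.65, 4.17 and 2.49, below whole-embryo means of 6.67, 9.26, 5.78 and 3.35. That of *zic2* was 7.70 in PNP against 7.45 in whole embryos.

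Markers of the midbrain and hindbrain split, with 5 of 18 measured genes higher and 5 lower (median log2 difference 0.10). Among the higher ones, *wnt8b*, a Wnt ligand of the diencephalon and midbrain, read 4.86, 4.87 and 4.50 in EF and 2.80, 3.09 and 3.25 in whole embryos, 3.25-fold higher (adjusted p = 1.24e-04), and *en2* and *lmx1b.1*, homeobox genes of the midbrain-hindbrain boundary, were 2.09-fold and 1.71-fold higher. Among the lower ones, *hoxa3*, a Hox gene of the posterior hindbrain, was 8.52-fold lower, *hoxa2* 2.48-fold lower, and *meis3*, a cofactor needed for the hindbrain, 2.83-fold lower. The LE means of *hoxa3*, *hoxa2* and *meis3* were 6.33, 5.31 and 8.76, and their PNP means 6.17, 5.31 and 5.60. For *meis3* the EF mean of 6.45 was above that of PNP. *en2* did not pass against PNP (adjusted p = 0.199 from limma) or LE (0.0557). *fgf8*, an FGF ligand of the same boundary and of other tissues, was 2.14-fold lower on its brightest probe set, though not when its 3 probe sets were averaged. The *fgf8* means were 6.80 in EF, 9.07 in PNP and 4.95 in LE. *foxb1*, a forkhead gene of the neural plate, exceeded whole embryos by 3.27-fold (adjusted p = 2.58e-05), yet its mean of 8.07 in PNP was above that of EF. Among the Iroquois homeobox genes, which partition the neural plate, *irx1* and *irx3* were 2.17-fold and 2.57-fold higher, while *irx2* had a log2 difference of 0.47 (adjusted p = 0.374).

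Of 25 measured genes of primary neurogenesis, 1 was higher and 4 lower, with a median log2 difference of 0.07, which was −0.01 after quantile normalization. *syt1*, the calcium sensor of synaptic vesicles, read 2.69, 2.68 and 2.70 in EF and 5.87, 5.68 and 5.7 in whole embryos, 8.35-fold lower (adjusted p = 8.51e-08). Its mean in LE was 6.07 and in PNP 2.13, so in these tissues its high signal was in the flank and not in the posterior neural plate. *snap25*, which drives vesicle fusion, and *dlc*, a Delta-type Notch ligand, were lower by at least 2.26-fold and 2.12-fold. The call on *snap25* did not hold when its 3 probe sets were averaged, and *dlc* had a mean of 4.39 in PNP. *gadd45g*, a growth-arrest gene of early neurons, was 4.10-fold lower (adjusted p = 1.53e-04). *elavl3*, an RNA-binding protein of newborn neurons, had a log2 difference of 0.34 (adjusted p = 0.153), and *tubb2b*, a neural tubulin, of 1.01 (adjusted p = 0.0815), with overlapping arrays.

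Several single genes known from neurons were higher in EF, named for their values and not as a group. *celf3*, a neural splicing regulator, read 7.55, 7.74 and 7.65 in EF and 6.07, 6.56 and 6.57 in whole embryos, 2.37-fold higher (adjusted p = 7.77e-04), and *nova2*, a further neural splicing factor, was 2.04-fold higher. *epb41l3*, a protein that links membranes to the actin skeleton, read 7.10, 6.47 and 6.52 in EF and 4.98, 5.0 and 5.05 in whole embryos, 3.22-fold higher (adjusted p = 5.41e-05), and the 3 whole-embryo values were nearly equal. *dpysl3* and *dpysl2*, collapsin response mediators that act on microtubules, were 3.18-fold and 2.14-fold higher, *fyn*, a Src-family kinase, 2.90-fold and *pfn2*, the neural profilin that supplies actin monomers, 2.30-fold. Of 17 measured semaphorin, netrin and Slit genes and receptors, 3 were higher and 0 lower: *sema3a*, a secreted repellent, at 2.78-fold, *robo3*, a Slit receptor family member, at 1.87-fold and *ntn1*, netrin-1, at least 1.28-fold, the last not called when its probe sets were averaged. The neural crest and border list had 5 of 24 members higher and 5 lower. Among the lower was *ets1*, a factor of migrating crest and of blood vessel precursors, at 2.99-fold, with a mean of 8.02 in LE. The direction of *pax3* depended on the probe set. Its log2 difference was −0.55 on its brightest probe set, and 1.26 and 1.00 on others, all past the adjusted p.

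**Figure D3:**
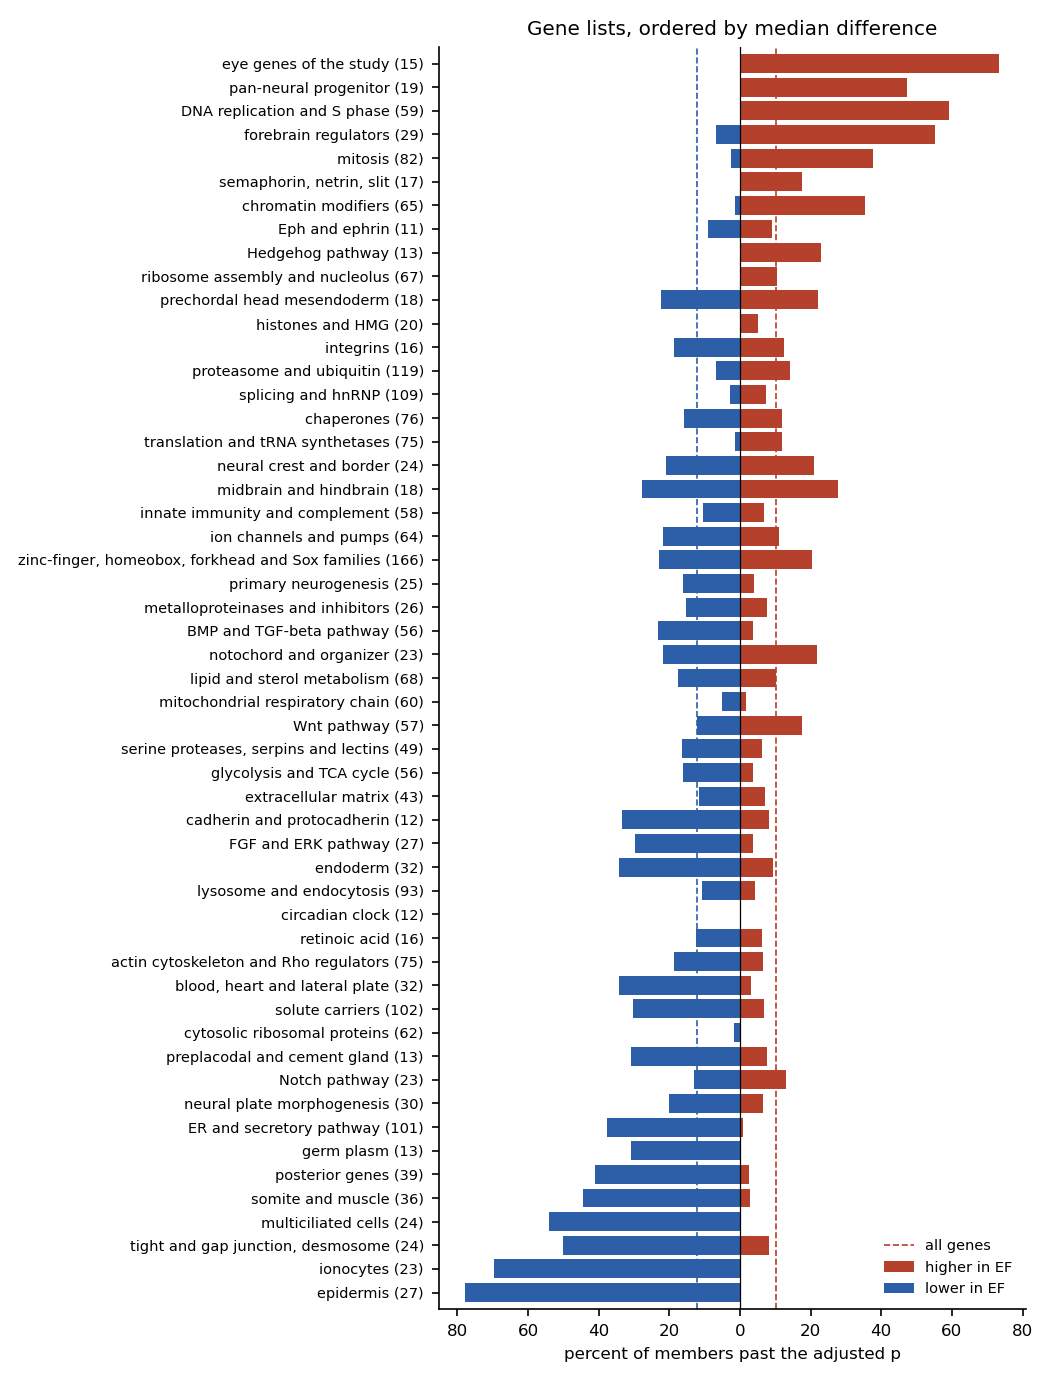
Share of measured members higher in EF (red, to the right) and lower in EF (blue, to the left) than in whole embryos by limma at an adjusted p under 0.05, for gene lists with at least 10 measured members, with the number measured in parentheses. Dashed lines give the shares over all genes, 10.2% and 12.2%, and the lists run from the highest to the lowest median difference.

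Outside the neural regulators, the widest rise was in the machinery of DNA replication. Of 59 measured genes of DNA replication and S phase, 35 were higher and 0 lower, with a median log2 difference of 0.75, and 57 of the 59 had a difference above 0. *cdc7*, the kinase that fires replication origins, read 5.07, 4.66 and 4.66 in EF and 2.78, 3.13 and 3.40 in whole embryos, 3.23-fold higher (adjusted p = 7.15e-05). *orc1*, a subunit of the complex that marks origins, was 2.28-fold higher. Subunits of the MCM helicase followed, of which *mcm5* read 7.62, 7.44 and 7.81 in EF and 6.70, 6.71 and 6.58 in whole embryos, 1.94-fold higher (adjusted p = 4.38e-04). The EF and whole-embryo arrays of all these genes were separate.

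*mcm2* was 1.87-fold, *mcm6.2* 2.23-fold and *mcm4* 2.59-fold higher, with *cdc45* and *gins1*, which complete the active helicase, at 2.07-fold and 2.19-fold. At the fork, *pola2* and *prim1*, of the polymerase alpha and primase complex, were 2.63-fold and 1.90-fold higher. *pcna*, the sliding clamp, read 8.75, 8.69 and 8.76 in EF and 8.09, 8.04 and 8.04 in whole embryos, a 1.6-fold difference (adjusted p = 0.00105) that was larger than the spread within either group. Its means in PNP and LE were 7.22 and 7.64. Enzymes that supply deoxynucleotides rose too: *rrm1* and *rrm2.2*, of ribonucleotide reductase, were 2.15-fold and 2.64-fold higher, the kinase gene *dck.1* 3.11-fold and thymidylate synthase *tyms* 1.97-fold. *chek1*, the checkpoint kinase that responds to stalled forks, was 3.10-fold higher, *bard1*, the partner of BRCA1 in repair, 2.73-fold, and the histone chaperones *asf1b* and *nasp*, which deliver histones to new DNA, 2.53-fold and 2.08-fold.

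Genes of mitosis rose less uniformly. Of 82 measured, 31 were higher and 2 lower, with a median log2 difference of 0.44. The count was 20 without EF replicate 1 and also 20 without whole-embryo replicate 2. *ncaph2*, a condensin II subunit that compacts chromosomes, read 3.81, 3.61 and 3.98 in EF and 2.69, 2.68 and 2.71 in whole embryos, 2.15-fold higher (adjusted p = 4.11e-05), and *ncapd3* of the same complex was 2.01-fold higher. *cdca5*, which protects sister cohesion, was 2.40-fold, *bub1b*, of the spindle checkpoint, 2.13-fold and *aurka*, a spindle-pole kinase, 1.92-fold higher. Among the cyclins and their kinases, the S-phase kinase *cdk2* was 1.74-fold and the G1 cyclin *ccnd1* 1.49-fold higher. The mitotic kinase *cdk1* had a log2 difference of 0.43 (adjusted p = 0.181) and the cyclin *ccna2* of 0.14 (adjusted p = 0.597), both with overlapping arrays.

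Chromatin modifiers had 23 of 65 measured members higher and 1 lower, with a median log2 difference of 0.36. The count was 12 without EF replicate 1 and 11 without whole-embryo replicate 1. *suv39h2*, a methyltransferase of histone H3 in heterochromatin, read 7.80, 7.60 and 7.62 in EF and 6.23, 6.49 and 6.87 in whole embryos, 2.21-fold higher (adjusted p = 5.84e-04), and its relative *suv39h1* was 2.68-fold higher. *prmt5*, an arginine methyltransferase, was 2.07-fold, *rbbp4*, a histone-binding subunit of several complexes, 2.04-fold and the deacetylase *hdac8* 1.95-fold higher. *ezh2*, the catalytic subunit of Polycomb complex 2, had a log2 difference of 0.38 (adjusted p = 0.099) with its EF arrays above all whole-embryo arrays. The 1 lower member was *arid3a*, an ARID-domain DNA-binding protein, at 2.63-fold. Histone and HMG genes themselves had 1 of 20 members higher and 0 lower, under the 10.2% of all genes.

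**Figure D4:**
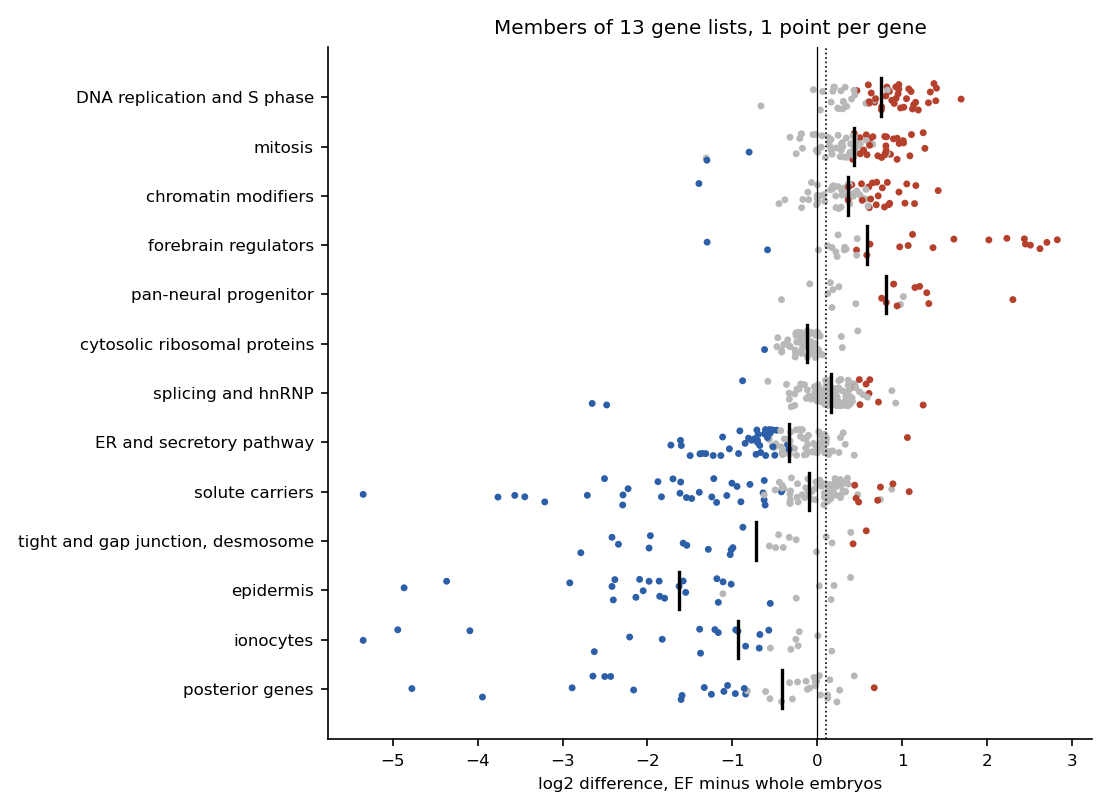
Log2 difference between EF and whole embryos for every measured member of 13 gene lists, 1 point per gene, red where higher and blue where lower by limma at an adjusted p under 0.05, with a black bar at each list's median and a dotted line at the median of all genes, 0.10. The replication genes lie as a compact group around a median of 0.75, ribosomal proteins lie close to 0, and the epidermal and ionocyte genes spread widely below 0.

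In the Wnt pathway, 10 of 57 measured genes were higher and 7 lower, 17.5% and 12.3% beside 10.2% and 12.2% of all genes. The median log2 difference was 0.04, and −0.03 after quantile normalization. *fzd3*, a Frizzled receptor of neural tissue, read 7.75, 7.90 and 8.05 in EF and 6.15, 6.79 and 6.51 in whole embryos, 2.66-fold higher (adjusted p = 0.00258). *dkk1*, a secreted Wnt inhibitor of the head, was 3.22-fold higher, and the transcriptional repressors *tcf7l1* and *tle2*, which silence Wnt targets, were 1.81-fold and 1.62-fold higher. Against PNP, *tle2* did not pass (adjusted p = 0.970 from limma). The ligand *wnt8a*, which posteriorizes the neural plate, read 2.67, 4.97 and 3.98 in EF and 6.0, 5.88 and 6.23 in whole embryos, 4.48-fold lower (adjusted p = 0.00763), with a wide spread among the EF arrays. *vangl1* and *prickle1*, core planar cell polarity genes, were 2.44-fold and 2.04-fold lower, the latter with a mean of 9.08 in PNP.

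Of 56 measured BMP and TGF-beta genes, 13 were lower and 2 higher, and the median log2 difference of 0.07 was near that of all genes. *bmp7.1* read 2.96, 2.86 and 3.40 in EF and 5.20, 5.04 and 5.35 in whole embryos, 4.36-fold lower (adjusted p = 7.82e-06). *bmp4*, the ventral ligand that promotes epidermis, read 3.97, 3.19 and 3.67 in EF and 5.54, 5.42 and 5.34 in whole embryos, 3.53-fold lower (adjusted p = 2.18e-05), and *bmp2* was 2.75-fold lower. The groups were separate for all 3 ligands. All 3 were lower than in LE, but none passed against PNP (adjusted p = 0.303 for *bmp7.1*, 0.537 for *bmp4* and 0.651 for *bmp2* from limma). Some genes that BMP signalling is known to induce were lower too. The decoy receptor *bambi* was lower by 5.07-fold, the inhibitory *smad7* by 4.77-fold, the HLH inhibitor *id2* by 3.97-fold and the ventral homeobox repressor *ventx2.1* by 5.02-fold. *bambi* did not pass against PNP (adjusted p = 0.970 from limma) or LE (0.0527). The PNP means of *smad7*, *ventx2.1* and *id2* were 6.83, 7.02 and 2.45, against EF means of 5.20, 4.32 and 5.63. A link between the ligands and these genes was not tested. *szl*, a secreted protein of the ventral centre, was at least 1.53-fold lower.

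In the FGF and ERK pathway, 8 of 27 measured genes were lower and 1 higher. *egr1*, an immediate early gene of ERK signalling, was 3.89-fold lower (adjusted p = 2.81e-04), with a mean of 9.36 in PNP, *ets2*, an ETS factor, was 2.12-fold lower and *dusp1*, a MAP kinase phosphatase, 1.39-fold lower. *etv4*, an ETS gene that FGF signalling induces, had a log2 difference of −0.09 (adjusted p = 0.587), and the receptors *fgfr1* and *fgfr4* of 0.46 (adjusted p = 0.0962) and 0.51 (adjusted p = 0.0613). Hedgehog components had 3 of 13 members higher and 0 lower, *gli3*, the co-receptor *boc* at 2.14-fold and the transducer *smo* at 1.56-fold. The call on *smo* was lost without EF replicate 1 (adjusted p = 0.0920), EF replicate 3 (0.0582), whole-embryo replicate 1 (0.0872) or whole-embryo replicate 2 (0.0636), and in a fit of the 6 arrays alone both *smo* (0.0822) and *boc* (0.0612) failed to pass. The ligand *shh* had a log2 difference of 0.36 (adjusted p = 0.497) and the receptor *ptch1* of 0.24 (adjusted p = 0.284). *ptch1* was hardly measured, above the ceiling on 2 EF arrays and 1 whole-embryo array only.

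Hes genes, repressors downstream of Notch, went both ways. *hes7.1* was 10.3-fold higher in EF and *hes1* 3.06-fold higher, while *hes7.2* read 2.86, 3.10 and 2.45 in EF and 6.25, 5.62 and 6.31 in whole embryos, 9.58-fold lower (adjusted p = 1.31e-05). The PNP means of *hes7.1* and *hes7.2* were 2.41 and 7.30, so in EF and PNP these close relatives were each high where the other was low. Of 23 measured Notch pathway genes, 3 were higher and 3 lower. The ligand *jag1* was 1.83-fold higher, the receptor *notch1* had a log2 difference of 0.07 (adjusted p = 0.735) and the ligand *dll1* of −0.28 (adjusted p = 0.599).

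Of 16 measured retinoic acid genes, 1 was higher and 2 were lower, near the shares of all genes, and the median log2 difference was −0.04. *aldh1a2*, which makes retinoic acid, read 3.40, 4.11 and 3.26 in EF and 6.19, 6.21 and 6.54 in whole embryos, 6.61-fold lower (adjusted p = 2.53e-05), with means of 4.94 in PNP and 8.53 in LE. *rdh10*, which makes the precursor retinal, was 2.34-fold lower. *cyp26c1*, which degrades retinoic acid, read 7.43, 8.76 and 7.87 in EF and 7.12, 6.99 and 6.63 in whole embryos, 2.16-fold higher (adjusted p = 0.0317), and its means in PNP and LE were only 2.78 and 3.26. This call was lost when EF replicate 2 (adjusted p = 0.113), EF replicate 3 (0.0575) or any 1 whole-embryo array was left out, the last at 0.0503 to 0.0972. It was also lost in a fit of the 6 arrays alone (adjusted p = 0.0634) and with the replicate number as a block (adjusted p = 0.0534). *cyp26a1*, of the same enzyme family, had a log2 difference of −0.56 (adjusted p = 0.0792).

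Epidermal genes had the lowest median of the 54 gene lists. Of 27 measured, 21 were lower and 0 higher, with a median log2 difference of −1.63. Their summed linear signal was 2337 to 2925 on the EF arrays against 10785 to 11656 on the whole-embryo arrays. On the LE arrays that sum was 11743 to 12936. *krt12.4*, an embryonic epidermal keratin, read 5.98, 6.45 and 6.14 in EF and 10.41, 10.74 and 10.52 in whole embryos, 20.6-fold lower (adjusted p = 2.33e-08), and *itln1*, a lectin secreted by the skin, read 5.24, 5.84 and 4.82 against 10.15, 10.31 and 10.02, 29.1-fold lower (adjusted p = 8.40e-08). Neither was down to background in EF. In PNP *krt12.4* and *itln1* had means of 2.72 and 3.00, and *krt12.5*, a further epidermal keratin, read 7.73, 8.25 and 8.46 in EF against a PNP mean of 3.08. Against PNP, 13 of the 27 epidermal genes were higher in EF and 3 lower, beside 15.1% and 11.2% of all genes, and against LE 0 were higher and 20 lower, beside 16% and 11.9%. The part of this surface signal in other differences of EF was not tested.

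The epidermal genes that fell cover structure and control. Of the simple-epithelial keratins, *krt19* was 7.54-fold, *krt18.1* 4.40-fold and *krt8.1* 3.64-fold lower. Desmosome and cornified-layer proteins followed, with *ppl*, periplakin, at 6.89-fold, *dsp*, desmoplakin, at 5.34-fold, *evpl*, envoplakin, at 5.07-fold, *pkp3*, a plakophilin, at 3.95-fold and *jup*, plakoglobin, at 2.90-fold. In the list of tight and gap junctions and desmosomes 12 of 24 members were lower and 2 higher, with a median log2 difference of −0.72, the claudin *cldn7* among the lower at 2.99-fold. Regulators fell with them: the grainyhead factor *grhl1*, which directs keratin genes, was 4.27-fold lower, *gata2* and *gata3*, zinc-finger factors of ventral ectoderm and blood, 5.29-fold and 4.14-fold, and *dlx3*, a homeobox gene of non-neural ectoderm, 3.62-fold. *esrp1*, an epithelial splicing regulator, was 5.58-fold lower and *trim29*, a gene of stratified epithelia, 5.94-fold lower.

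Ionocytes are the skin cells that transport acid and salt. Of 23 measured genes of these cells, 16 were lower and 0 higher (median log2 difference −0.94), and their summed linear signal was 982 to 1081 in EF against 1854 to 2306 in whole embryos. *atp6v1b1*, a proton-pump subunit of these cells, read 2.02, 2.37 and 1.86 in EF and 5.44, 7.33 and 5.76 in whole embryos, at least 13.4-fold lower (adjusted p = 1.20e-05), and *foxi1*, their specifying forkhead factor, was at least 2.32-fold lower. *atp1b2*, a sodium pump subunit, was 6.17-fold lower. Both *atp6v1b1* and *foxi1* stood under the ceiling on every EF array, while their LE means were 6.80 and 5.0.

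For multiciliated cells, 13 of 24 measured genes were lower and 0 higher (median log2 difference −0.71). *meig1* read 3.38, 3.14 and 3.07 in EF and 6.95, 6.35 and 6.0 in whole embryos, 9.40-fold lower (adjusted p = 1.24e-06). *tekt4* and *tekt2*, tektins of the ciliary axoneme, were lower by at least 5.20-fold and 3.15-fold, and *ccno*, needed for the many basal bodies of these cells, was 3.92-fold lower. The summed linear signal of the 24 genes, which a few bright members dominate, overlapped at 1861 to 2466 in EF and 1969 to 2386 in whole embryos. Of 13 preplacodal and cement gland genes, 4 were lower and 1 higher. *agr2*, a secreted protein of the cement gland, read 6.03, 4.56 and 6.03 in EF and 7.77, 8.42 and 8.25 in whole embryos, 6.10-fold lower (adjusted p = 2.59e-04), still above its PNP mean of 2.33, and *pitx1*, a homeobox gene of the same gland, was 2.48-fold lower.

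Trunk mesoderm genes were low in EF. Of 36 measured somite and muscle genes, 16 were lower and 1 higher, with a median log2 difference of −0.54. Their summed linear signal was 676 to 782 in EF against 2323 to 3639 in whole embryos. On the PNP arrays that sum was 2984 to 3107. *myf5*, a myogenic bHLH factor, read 2.69, 2.63 and 2.26 in EF and 7.09, 6.59 and 6.61 in whole embryos, 18.9-fold lower (adjusted p = 3.56e-08), with a PNP mean of 8.89. *tbx6*, a T-box factor of paraxial mesoderm, was 17.7-fold lower, *msgn1*, of the presomitic mesoderm, at least 11.9-fold and *myod1* 8.26-fold lower. Of the contractile proteins, *myl1*, a myosin light chain, was 12-fold lower and *mylpf*, of the same kind, 8.94-fold, and of the channels, *cacng1*, a calcium channel subunit of muscle, 9.03-fold.

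Posterior genes had 16 of 39 measured members lower and 1 higher (median log2 difference −0.42). *cdx1*, a caudal-type homeobox gene, read 1.96, 1.49 and 1.90 in EF and 7.09, 6.13 and 6.45 in whole embryos, at least 17.4-fold lower (adjusted p = 5.55e-08). The trunk Hox genes *hoxc6*, *hoxa7* and *hoxd9* were 15.4-fold, at least 6.54-fold and 6.24-fold lower, *evx1*, an even-skipped homeobox gene of the tail bud, 5.67-fold and *tbxt*, brachyury, 3.04-fold. In blood, heart and lateral plate, 11 of 32 members were lower and 1 higher. The hematopoietic cofactor *lmo2* was 4.61-fold, the myeloid factor *cebpa* 3.62-fold and *mpo*, myeloperoxidase, at least 3.68-fold lower.

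Of 32 measured endoderm genes, 11 were lower and 3 higher, and 16 of the 32 had a difference above 0. The median was 0.02, and −0.01 after quantile normalization, with a summed linear signal of 713 to 853 in EF against 1597 to 1836 in whole embryos. *sox17b.1*, a driver of endoderm formation, read 2.36, 2.76 and 2.75 in EF and 6.2, 6.07 and 6.19 in whole embryos, 11.6-fold lower (adjusted p = 8.02e-07). *vegt*, the T-box gene with a maternal endodermal transcript and a zygotic mesodermal one, was 9.40-fold lower, and *pgat*, a germ plasm transcript, read 2.12, 2.41 and 1.99 in EF and 5.33, 5.20 and 5.56 in whole embryos, at least 7.63-fold lower (adjusted p = 1.46e-07). Of 13 germ plasm genes 4 were lower and 0 higher, with a median of −0.37, *dazl*, an RNA-binding protein of germ cells, at 1.85-fold.

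The prechordal head mesendoderm list had 4 of 18 members higher and 4 lower, and its summed linear signal was above that of whole embryos, at 621 to 778 against 435 to 531. *gsc*, goosecoid, a homeobox gene of the prechordal plate, read 5.38, 4.0 and 5.08 in EF and 3.57, 2.78 and 3.48 in whole embryos, 2.92-fold higher (adjusted p = 0.00537), with means of 2.54 in PNP and 2.10 in LE. Its EF and whole-embryo arrays did not overlap. *hhex* stood under the ceiling on every EF and whole-embryo array, so its log2 difference of 0.18 (adjusted p = 0.403) is not a measured one. *cer1*, a secreted BMP, Wnt and Nodal inhibitor of the anterior endoderm, had a difference of −0.85 (adjusted p = 0.0599), and *foxa1*, a forkhead factor of endoderm, was 2.55-fold lower. The notochord and organizer list had 5 of 23 members higher and 5 lower, with a summed linear signal of 1687 to 1936 in EF and 1186 to 1334 in whole embryos. On the PNP arrays that sum was higher still, at 2229 to 2707, and against PNP 5 members were higher and 10 lower in EF. How much of the EF levels came from the mesendoderm dissected with the EF was not tested.

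Of 101 measured genes of the endoplasmic reticulum (ER) and the secretory pathway, 38 were lower and 1 higher, beside 12.2% and 10.2% of all genes, with a median log2 difference of −0.33. *xbp1*, the transcription factor that expands the secretory pathway, read 6.02, 6.07 and 5.59 in EF and 7.71, 7.42 and 7.73 in whole embryos, 3.31-fold lower (adjusted p = 1.41e-05). *hspa5*, the ER chaperone BiP, read 5.67, 5.89 and 5.55 in EF and 7.14, 7.18 and 6.94 in whole embryos, 2.61-fold lower (adjusted p = 1.57e-05), with means of 7.12 in PNP and 7.09 in LE. EF was thus below the whole embryos for *hspa5*, and the PNP and LE means fell within the range of the whole-embryo arrays.

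*hsp90b1* and *calr*, further ER chaperones, were 2.82-fold and 2.34-fold lower. The translocon subunits *sec61g*, *sec61a1* and *sec61b*, through which proteins enter the ER, were 2.17-fold, 1.88-fold and 1.5-fold lower, and *ostc* and *dad1*, of the complex that adds N-linked sugars, 2.20-fold and 1.75-fold. Coat and cargo proteins between ER and Golgi followed, with *tmed4* at 3.03-fold, *copz1* at 2.56-fold, *sec22b* at 2.49-fold, *copg1* at 2.05-fold and *kdelr3* at 1.80-fold lower. The mu subunits of the AP-1 adaptor parted: the epithelial form *ap1m2* was 3.06-fold lower and the general form *ap1m1* 2.08-fold higher, the 1 higher member of the list. Against PNP 39 of the 101 genes were lower and 6 higher in EF, and against LE 34 were lower and 7 higher. All these comparisons share the EF arrays. The part of epidermal cells in the ER counts was not tested. Of the 27 epidermal genes, 13 had more signal in EF than in PNP and 3 had less. *krt8.1* and *krt18.1* were among these 3, lower by 2.06 and 2.00 on the log2 scale. Their means were 9.83 and 9.65 in PNP, and 9.50 and 9.55 in LE.

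*furin*, the protease that cuts proproteins in the Golgi, read 5.68, 5.36 and 5.64 in EF and 8.59, 9.06 and 8.99 in whole embryos, 10-fold lower on its brightest probe set (adjusted p = 1.15e-07). Its 4 other probe sets did not pass, with log2 differences of −0.05 to 0.31, and all were dimmer. Outside the lists, and picked after their values were seen, enzymes that make sugar nucleotides for glycosylation were low as well: *gmppb*, which makes GDP-mannose, by 6.30-fold, and *gfpt1* and *uap1*, of the hexosamine pathway, by 3.51-fold and 3.48-fold.

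Membrane transporters were lower on balance. Of 102 measured solute carriers, 31 were lower and 7 higher, although the median of −0.10 was near 0. *slc38a2*, a sodium-coupled amino acid transporter, read 5.74, 5.25 and 4.31 in EF and 9.13, 8.58 and 8.87 in whole embryos, 13.5-fold lower (adjusted p = 2.58e-06), and was below its means of 7.04 in PNP and 8.56 in LE. *slc18a1*, a vesicular monoamine transporter, *slc22a4*, a carnitine-type organic cation transporter, and *slc13a3*, a dicarboxylate transporter, were 11.8-fold, 10.9-fold and 9.25-fold lower. The heavy chain *slc3a2* and its light chains *slc7a8* and *slc7a5*, which exchange large neutral amino acids, were 4.69-fold, 3.25-fold and 2.79-fold lower. Higher in EF were *slc7a3*, a cationic amino acid transporter, at 1.85-fold, *slc16a1*, a lactate and pyruvate carrier, at 1.67-fold and *slc29a2*, a nucleoside transporter, at 1.63-fold. Against PNP the balance of the list was the other way, with 19 members higher and 6 lower in EF, and against LE 7 were higher and 29 lower.

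Of 56 measured genes of glycolysis and the TCA cycle, 9 were lower and 2 higher, with a median log2 difference of 0.03. *fbp1*, which runs gluconeogenesis, read 6.28, 6.28 and 6.36 in EF and 9.24, 9.28 and 8.87 in whole embryos, 7.07-fold lower (adjusted p = 8.51e-08). The hexokinases *hk2* and *hk1* were 4.39-fold and 4.14-fold lower, *pygm*, muscle glycogen phosphorylase, 5.22-fold and *sdhb*, a subunit of succinate dehydrogenase, 4.0-fold, while *pdk4*, which restrains pyruvate dehydrogenase, was 2.18-fold higher, a call lost in a fit of the 6 arrays alone (adjusted p = 0.0595). Mitochondrial creatine kinase *ckmt1b* was 18.4-fold lower, *gamt*, which makes creatine, 5.90-fold and the muscle kinase *ckm* 3.59-fold. *adhfe1*, a hydroxyacid oxidoreductase, was 25.2-fold lower, with its whole-embryo arrays spread from 5.58 to 8.59.

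In lipid metabolism, 7 of 68 measured genes were higher and 12 lower. *dgat2*, which makes triacylglycerol, read 7.48, 7.02 and 7.11 in EF and 5.33, 4.81 and 5.16 in whole embryos, 4.30-fold higher (adjusted p = 2.40e-04), with means of 3.58 in PNP and 3.30 in LE. The EF arrays lay far above the whole-embryo arrays. *elovl7* and *elovl2*, fatty acid elongases, were 3.83-fold and 3.74-fold lower and *osbpl2*, an oxysterol-binding protein, 5.07-fold lower. The partners that start sphingolipid synthesis differed in sign, with *sptlc2* 2.81-fold lower and *sptlc1* 5.24-fold higher on its brightest probe set. The rise of *sptlc1* was not particular to EF, whose mean of 7.61 was below those of PNP at 8.49 and LE at 8.28. EF did not pass against either (adjusted p = 0.109 and 0.227 from limma). Not every probe set of *sptlc1* rose.

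Beside the junction genes given above, 4 of 12 measured cadherins and protocadherins were lower and 1 higher, with a median log2 difference of 0.02 that was −0.06 after quantile normalization. The extracellular matrix list had 3 of 43 members higher and 5 lower, with *emilin1*, an elastic-fibre glycoprotein, 2.60-fold higher and *sparc* and *thbs4*, matricellular proteins, 2.63-fold and 4.6-fold lower. Of 16 integrin genes 2 were higher and 3 lower, *itgb5* among the former at 2.86-fold and *itga3* among the latter at 2.85-fold. *cdh2*, N-cadherin of neural tissue, had a log2 difference of 0.45 (adjusted p = 0.0795) on the brightest of its 4 probe sets. The study itself listed *cdh2* among its eye genes, enriched over 2-fold in EF against whole embryos. *mmp21*, a metalloproteinase, was 7.21-fold lower with a mean of 9.01 in PNP, and *timp3*, a metalloproteinase inhibitor, was 2.32-fold higher. *epha2*, an ephrin receptor kinase, was 2.82-fold lower, *myl9*, a myosin light chain of contractile epithelia and smooth muscle, 4.45-fold lower, and *cxcr4*, a chemokine receptor of migrating cells, 2.88-fold higher, though not when its probe sets were averaged (adjusted p = 0.188). *nradd*, a relative of the neurotrophin receptor, read 3.99, 4.13 and 3.57 in EF and 8.72, 8.07 and 7.92 in whole embryos, 20.2-fold lower (adjusted p = 4.20e-07).

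Much of the common cell machinery lay near or under the shares of all genes. Of 62 measured cytosolic ribosomal proteins, 0 were higher and 1 was lower, *rps6* at 1.54-fold, a call lost without EF replicate 1 (adjusted p = 0.0619), EF replicate 3 (0.0812) or whole-embryo replicate 2 (0.0830). The median log2 difference of the 62 was −0.13, and only 10 of them had a difference above 0, so most lay slightly lower in EF. Against PNP and LE the medians were −0.13 and −0.17. Of 60 genes of the mitochondrial respiratory chain 1 was higher and 3 lower, and of 109 splicing genes 8 were higher and 3 lower, *rbm24*, a muscle and lens splicing factor, among the latter at 6.28-fold. Ribosome assembly had 7 of 67 members higher and 0 lower, and translation factors and tRNA synthetases 9 of 75 higher and 1 lower. For the proteasome and ubiquitin system 17 of 119 were higher and 8 lower, with *skp2*, which targets cell-cycle inhibitors for destruction, 2.01-fold higher. Chaperones had 9 of 76 higher and 12 lower, *dnajc9*, a histone co-chaperone, being 2.88-fold higher. None of 12 measured circadian clock genes passed in either direction.

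Beside the other dissected regions, the replication genes stood out in the same way. Against PNP 37 of 59 were higher and 0 lower in EF (median log2 difference 1.02), and against LE 37 were higher and 1 lower (median 0.78), where 15.1% and 16% of all genes were higher. For mitosis the counts were 32 higher and 4 lower of 82 against PNP, and 29 and 2 against LE. Chromatin modifiers had 25 of 65 higher and 1 lower against PNP, and 32 and 1 against LE. Other lists depended on the region set against EF: 27 of 39 posterior genes were lower and 0 higher than in PNP but 7 lower and 3 higher than in LE, while 18 of 23 ionocyte genes were lower than in LE but 3 than in PNP. Pan-neural genes were higher in 10 of 19 against PNP, with 1 lower, and in 12 against LE. The same EF arrays enter all 3 comparisons.

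*X. laevis* is an allotetraploid, with L and S copies of many genes from its 2 parental species. The array has separate probe sets annotated to both copies of 1017 genes. Whether the probe set of a copy also bound the other copy was not tested. By the 2-fold rule both copies were higher in EF for 10 genes and lower for 42, and for 0 genes were the copies called in opposite directions. Among the 10 were the replication genes *mcm4*, *mcm6.2* and *nasp* and the neural genes *zic2*, *dpysl3* and *en2*. *hspa5* fell by 1.38 on the log2 scale in both copies, *calr* fell by 1.74 in L and by 1.23 in S, and *hsp90b1* by 1.31 in L and by 1.5 in S. The keratin *krt12.4* fell by 3.91 in L and by 4.36 in S.

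One copy alone was called for 129 genes, higher for 36 and lower for 93, and the other copy had a difference on the same side of 0 for 27 and 72 of them. In 104 of the 129 the called copy was the brighter. *gata6*, a zinc-finger factor of endoderm and heart, fell by 3.81 in L, whereas its S copy, at mean signals of 2.09 in EF and 2.19 in whole embryos, differed by −0.09. *slc3a2* had a log2 difference of 0.14 in L and of −2.23 in S, and *ckmt1b* fell in both copies, by 1.66 in L and by 4.20 in S. The median absolute difference between copies was 0.30 on the log2 scale, and 106 pairs stood more than 1 apart. By adjusted p alone, 115 pairs passed in both copies, 110 of them in the same direction, and the 5 opposite pairs included *slc25a24*, a mitochondrial carrier, at 1.08 in L and −0.97 in S.

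**Figure D5:**
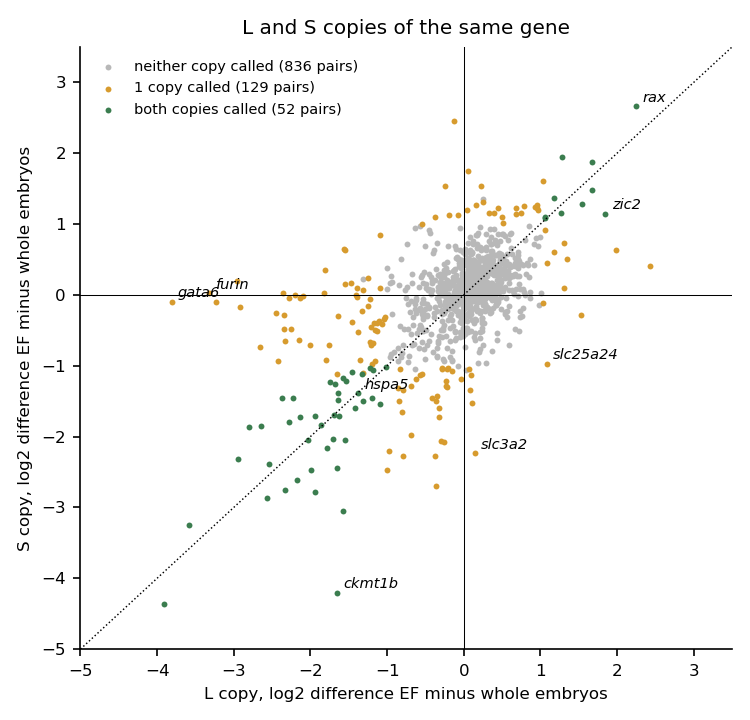
Log2 difference between EF and whole embryos of the S copy (vertical axis) against that of the L copy (horizontal axis) for 1017 genes measured in both copies, coloured by whether neither (836), 1 (129) or both (52) were called by limma at an adjusted p under 0.05 and 2-fold. The pairs with both copies called lie in the corners where both rise or both fall, and those with 1 copy called spread along the axes.

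Other probe sets of a gene, which include those of its other copy, were also set beside the brightest one. For 2021 genes, 2818 probe sets beyond the brightest were tested. Of these, 279 passed together with the brightest one, 267 in the same direction and 12 in the opposite one. The genes of the 5 opposite pairs of copies above are all among these 12, so this comparison partly repeats that of the copies. *pfkp*, a phosphofructokinase, was among the 12, with log2 differences of −1.22 on its brightest probe set and 0.44 on another, whose signals were near background. Not all of the 12 were of this kind. *fzd8* had log2 differences of −0.52 on its brightest probe set and 1.34 on another. The means of that other probe set were 7.65 in EF and 6.31 in whole embryos. *pax3*, given above, was also among the 12.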

How the data were processed

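RNA from 3 EF pools and 3 whole-embryo samples, with 3 arrays each of PNP and LE in the same fit, was measured on Affymetrix *X. laevis* arrays. As deposited by the authors, the values are linear intensities, made with RMA in GeneSpring according to the study's methods. They were put on a log2 scale here, unfiltered and without an offset. Other scanner output was not used here. Of 15611 probe sets, 120 controls were left out and 15491 tested. In the platform annotation 9304 of these had a single symbol, 195 more than 1 and 5992 none, and 9227 were found in RefSeq's gene table (v10.1, for names). Joining L and S symbols left 6486 genes, each represented by its brightest probe set over the 12 arrays.

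Groups were compared by limma 3.58.1 (R 4.3.3), lmFit and eBayes on all 12 arrays, with Benjamini-Hochberg adjustment over all probe sets tested. Arrays have no depth, and precision is limited by the number of arrays, 3 in a group. The adjusted p of a gene is that of its probe set. The 54 gene lists and the genes named were chosen with earlier results of these data known. The rule for names took the 20 largest rises and falls among called genes with separate arrays, the 5 largest each way in a list, and members given for their role. Not every gene it yields is named. L and S copies were set side by side without a test between them.

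Same-numbered EF and whole-embryo arrays did not deviate together (r = −0.17, −0.08 and −0.04), so numbers were not used as pairs. The limma step was checked on simulated data. Alternatives were the replicate block, a fit of the 6 arrays, a trend in eBayes, quantile normalization, median centring and an offset of 16. Others were dim probe sets left out, no limit on fold, averaged probe sets of a gene, and each array left out in turn. An unpaired Student's t-test of the EF and whole-embryo arrays, with the same adjustment, was a further alternative. The study's supplement names such a test only for its induced cells against each tissue. Tables and figures used Python 3.11.15, numpy 2.4.6, pandas 2.3.3, scipy 1.17.1 and matplotlib 3.10.9.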

Additional observations from a re-analysis of the deposited data

How the results depend on the processing

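The 376 higher and 1027 lower probe sets became 126 and 519 with an offset of 16 before the log. They were 103 and 429 by the unpaired t-test, and 1368 and 1635 with no fold limit. With 1 array left out they were 311 to 436 and 964 to 1122. Median centring gave 476 and 948, quantile normalization 447 and 963. Numbers do not pair the arrays, and with the replicate number as a block the counts were 366 and 1029. Mitosis genes higher numbered 20 to 26 and chromatin modifiers 11 to 18 with 1 array left out, against 31 and 23. The counts of the other 9 lists recomputed stayed within 1.5 times their value. Among them were replication at 28 to 34 and the ER at 27 to 34 with 1 array left out. Only 11 of the 54 lists were recounted, with averaged probe sets, median centring, quantile normalization or 1 array left out. These counts were not recomputed under the other alternatives, the unpaired t-test and the offset among them.

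The median of all probe sets was 0.10 as deposited, 0.18 after median centring and 0.06 after quantile normalization, and 14 of 54 list medians, all close to 0, turned sign under a scaling or the offset. Of 227 genes named, with *fzd8* and *pax3* not counted, 209 passed. Of these, 206 passed without each array in turn, the exceptions being *smo*, *cyp26c1* and *rps6*. The unpaired t-test lost 105 of the 209 and the fit of the 6 arrays 5 (*boc*, *smo*, *cyp26c1*, *pfkp* and *pdk4*). Averaged probe sets lost 7 (*fgf8*, *ntn1*, *snap25*, *slc25a24*, *pfkp*, *rps6* and *cxcr4*), the offset 3 and the block 1 (*cyp26c1*, adjusted p = 0.0534 from limma). *emx2*, at 0.01 on the log2 scale, was −0.00865 with the offset and −0.33 to 0.48 with 1 array left out. Of 3283 recomputed values of these 227 genes, 3126 kept their direction and their side of the threshold. Genes near the background ceiling have only a bound or a poorly measured difference.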
